A study of Mus musculus with 4 samples.

Results

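The genes described here are 37 genes of DNA damage signalling and repair, listed by name for their known roles, with earlier results of these data known, out of 23756 genes in the count table. RNA-seq was done on 4 libraries of 32Dcl3-Abl1ko cells. These are mouse 32Dcl3 hematopoietic precursor cells, a line that needs interleukin-3 (IL-3), in which Abl1 was disrupted with CRISPR-Cas9 delivered by lentivirus. The Abl1ko/IL3+ group (2 libraries) was cultured with IL-3, and the Abl1ko/IL3- group (2 libraries) was cultured without it. The groups therefore share the Abl1 disruption, and cells with intact Abl1 were not analysed here. The paper describes selected single clones and populations made with different guides, but ties none of them to a library. Withdrawal of IL-3, the time spent in culture and the outgrowth of particular cells cannot be told apart in this design. The question put to the repair genes is whether their RNA differed between cells growing with and without the cytokine.

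Cells meet DNA breaks with a signalling layer and a repair layer. The kinases ATM, ATR and DNA-PKcs sense damage and phosphorylate checkpoint kinases, p53 and histone H2AX, on which MDC1, RNF8, RNF168 and 53BP1 assemble. Breaks are then joined by homologous recombination, which copies an intact sister chromatid and needs BRCA1, BRCA2, PALB2 and a family of paralogs that includes XRCC3, by non-homologous end joining through Ku, or by polymerase theta, while PARP1 and XRCC1 act on single-strand breaks. Genes of homologous recombination and of the Fanconi pathway are known to be transcribed most in dividing cells, and proliferation genes were read beside them for that reason.

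The 4 libraries held between 48953174 and 60382588 counts in genes. All 37 repair genes were counted in every library and all passed the filter on low counts, so none is missing from the comparison. Together they held between 0.121% and 0.138% of the counts of a library. The IL3+ replicates stood further apart than the IL3- replicates. Over all 16535 genes tested, the median fold between replicates in CPM (counts scaled to each library's total and by TMM factors) was 1.72 with IL-3 and 1.30 without. For the repair genes it was 1.40 with IL-3, where 15 genes differed more than 1.5-fold, and 1.18 without, where 4 did. The summed level of 7 erythroid markers was 466 and 11636 CPM in the IL3+ replicates, against 5134 and 2720 CPM in the IL3- replicates. Most of the 11636 CPM was Hba-a1 (6745) and Hba-a2 (4175). The sum of 7 mast cell and basophil markers ran the other way between the IL3+ replicates, at 766 and 118 CPM, against 181 and 253 CPM in the IL3- replicates. The labels call the line a murine pre-B-cell. Rag1 reached at most 0.06 CPM, and the 6 pre-B cell markers in the table summed to between 19.0 and 26.0 CPM. Within that sum, Cd79b stood at 16.2 and 11.2 CPM with IL-3 and at 14.4 and 15.1 CPM without. Cd79a reached 11.7 CPM in IL3+ replicate 2. Mpo, a myeloid granule enzyme, stood at 1879 and 1477 CPM with IL-3 and at 908 and 499 CPM without (log2 fold change -1.25, adjusted p by edgeR 0.827), and Spi1, the myeloid factor PU.1, between 78.6 and 132 CPM. Kit and Cd34, which mark precursors, were at most at 0.46 CPM. Elane, also among the myeloid markers read, stood between 2.24 and 5.59 CPM. Of 9 maturing neutrophil markers tested, 5 (S100a8, S100a9, Ltf, Camp and Ly6g) were higher in both IL3- libraries with an unadjusted p under 0.05 and none with an adjusted p under 0.05 by edgeR, and the median log2 fold change of the 9 was 4.23. S100a8, a calcium-binding protein gene, had 1.148 and 0.386 CPM with IL-3 and 71.2 and 123 CPM without. The sum of the neutrophil markers was 806 and 296 CPM with IL-3 and 946 and 5367 CPM without, and most of it was Ngp, whose groups overlapped. The part of these cell markers in the results below was not tested. In bulk RNA, fewer cells of a type and less RNA per cell cannot be told apart.

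Xrcc3 and Rad51d, of one family of recombination paralogs, were the repair genes that differed most from the spread between replicates, and both were lower without IL-3. Most of the other repair genes lay within 1.5-fold of their level with IL-3. No repair gene had an adjusted p under 0.05 by the quasi-likelihood test of edgeR (Benjamini-Hochberg adjusted over all genes tested), and 0 of all 16535 genes (0%) did. DESeq2 called 271 genes, with 1 repair gene, Xrcc3, among the 160 lower ones (0.968% of genes tested). At an unadjusted p under 0.05, edgeR passed 978 genes. Of these, 555 were lower without IL-3 (3.36% of genes tested), against 2 of the 37 repair genes (5.41%). The other 423 genes were higher (2.56%), against 0 of the 37 repair genes. With 2 libraries a group, the p-values measure the spread between these libraries only. The series calls the duplicates biological, without saying whether they are separate clones or cultures.

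Of the 37, 17 repair genes had a log2 fold change above 0 and 20 had one below 0. Their median was -0.05, beside -0.03 over all genes tested. In 7 repair genes both IL3- libraries lay above both IL3+ libraries in CPM (18.9%, against 19.4% of all genes tested), namely Atr, Mdc1, Brca1, Palb2, Rad51b, Lig4 and Polq. In 13 repair genes both lay below (35.1%, against 17.9%), namely Atm, Chek2, Trp53, Nbn, Rad50, Brca2, Rad51d, Xrcc2, Xrcc3, Blm, Xrcc6, Parp1 and Lig3. That split of 7 and 13 depended on the scaling. In FPKM, which scales by length and depth, 9 genes lay above (24.3%, against 20.7% of all genes tested) and 9 below (24.3%, against 16.2%). In CPM set by library size alone, 10 lay above (27.0%, against 21.5%) and 9 below (24.3%, against 15.5%).

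**Figure D1:**
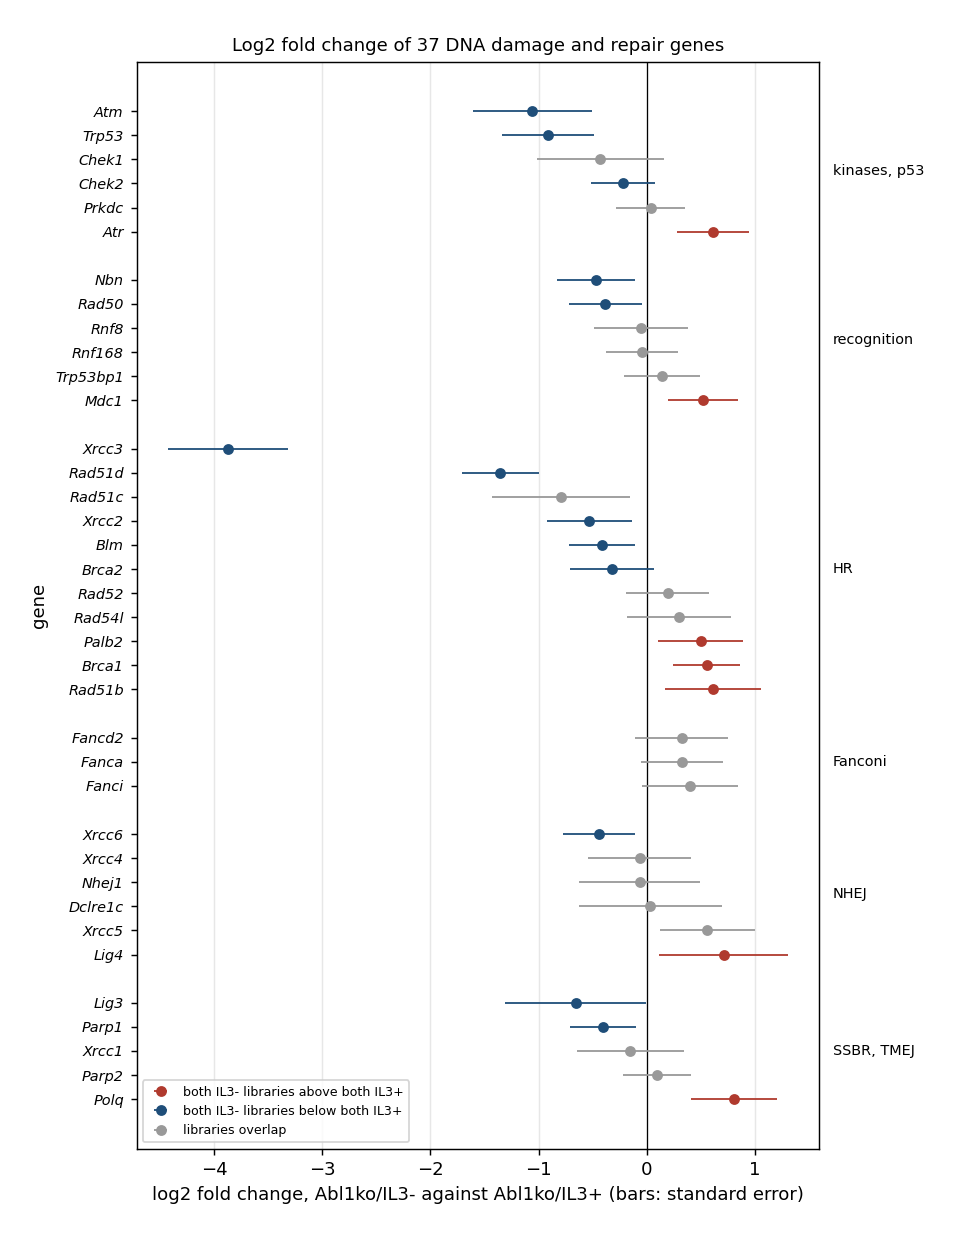
Log2 fold change, IL3- over IL3+, for each of the 37 repair genes, ordered by role, with bars of 1 standard error from edgeR's quasi-likelihood fit (2 libraries a group). Xrcc3 at -3.87 and Rad51d at -1.36 lie furthest below 0, and Polq at 0.80 lies furthest above it.

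XRCC3 forms a complex with RAD51C that acts during strand exchange and at stalled forks. Xrcc3 (ENSMUSG00000021287) lies on the minus strand of chromosome 12 from 111803192 to 111813841 (GRCm38), as the file gives it. It had 648 and 791 counts in IL3+ cells against 48 and 39 in IL3- cells. In CPM these were 10.1 and 14.5 against 1.003 and 0.672. Both IL3- libraries were therefore far below both IL3+ libraries, and the lowest IL3+ level was 10.02-fold above the highest IL3- level. In all, 57 of the genes tested had a gap this large or larger in that direction.

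The log2 fold change of Xrcc3 was -3.87 (SE 0.56, n = 2 libraries a group), or 14.7-fold lower, with an unadjusted p of 0.000946 and an adjusted p of 0.532 in edgeR's quasi-likelihood fit across all genes. DESeq2 gave -3.88 with an adjusted p of 1.15e-08. In all, 27 genes (0.163%) had an edgeR p as low and 103 genes were as far down. The neighbouring genes did not share the size of the difference. Klc1, whose exons share 12 bases with Xrcc3 on the other strand, had a log2 fold change of -0.41, and Zfyve21, which starts beside it on the opposite strand, had -0.10. Ppp1r13b, further along, had 1877 and 1514 counts in IL3+ cells against 769 and 954 in IL3- cells, a log2 fold change of -0.81.

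Because Xrcc3 differed most, the 250 bases before its start in RefSeq (GRCm38.p6, chr12:111813880-111814129, minus strand) are shown beside those of Brca1 (chr11:101551956-101552205, minus strand), a recombination gene whose IL3- libraries both lay above its IL3+ libraries without passing the test (log2 fold change 0.55, adjusted p by edgeR 0.874). Capitals mark CCAAT on either strand (written ATTGG on the other), the letters of the CCAAT box, and both sequences run 5′ to 3′ toward the gene.
Xrcc3: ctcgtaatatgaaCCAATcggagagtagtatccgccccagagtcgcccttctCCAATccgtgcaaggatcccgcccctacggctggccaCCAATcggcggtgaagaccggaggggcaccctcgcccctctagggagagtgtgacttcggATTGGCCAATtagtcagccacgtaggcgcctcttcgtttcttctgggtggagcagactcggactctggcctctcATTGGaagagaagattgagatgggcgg
Brca1: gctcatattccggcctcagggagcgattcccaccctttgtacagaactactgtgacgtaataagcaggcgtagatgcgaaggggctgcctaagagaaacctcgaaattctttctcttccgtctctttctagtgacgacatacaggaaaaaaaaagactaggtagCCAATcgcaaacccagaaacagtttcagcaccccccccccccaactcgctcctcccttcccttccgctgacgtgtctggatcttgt
The Xrcc3 window held 6 matches and the Brca1 window 1. The Xrcc3 window also lies just before the start of Zfyve21 (chr12:111814170, plus strand), whose groups overlapped (log2 fold change -0.10). Its matches therefore cannot be assigned to Xrcc3 alone. Of 27025 genes with such a window, 37.5% held at least 1 match and 18 genes (0.0666%) held 6 or more. Among the 31 repair genes with a window, 14 (45.2%) held CCAAT, 20 (64.5%, against 35.4% of all genes) held GGGCGG, the letters of the GC box, and 4 (12.9%, against 4.94%) held TTTNNCGC, an E2F-like sequence. TTTGAA, the letters of the CHR element of cell-cycle genes, was in 2 (6.45%, against 18.3%). Rad51d was not among the 31 genes with a window. After Xrcc3, Dclre1c held the most matches to CCAAT, with 3, and its groups overlapped (log2 fold change 0.04). Each motif was searched on both strands and its matches are descriptions of letters. Whether they go with the level of a gene was not tested.

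RAD51D belongs to the complex of RAD51B, RAD51C, RAD51D and XRCC2 that acts early in strand exchange. Rad51d lies on the minus strand of chromosome 11 from 82876434 to 82890614. It had 2081 and 1518 counts in IL3+ cells against 586 and 655 in IL3- cells, or 32.3 and 27.9 CPM against 12.2 and 11.3 CPM. The groups did not overlap, with a gap of 2.28-fold. The log2 fold change was -1.36 (SE 0.36), or 2.56-fold lower, with an unadjusted p of 0.0127 and an adjusted p of 0.727 by edgeR and 0.0783 by DESeq2. Its unadjusted p did not stay under 0.05 without either one of the IL3- replicates or with the replicate number as a block. Of the genes near it, Lig3 had a log2 fold change of -0.66, Rffl -0.01, Fndc8 -0.19 and Nle1 0.01. Of these 4 only Lig3 was lower in both IL3- libraries in CPM, by a gap of 1.006-fold, and it overlapped in FPKM.

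The other 3 paralogs had smaller log2 fold changes, of either sign. Rad51b had 430 and 588 counts in IL3+ cells against 611 and 812 in IL3- cells (log2 fold change 0.61, SE 0.45, adjusted p by edgeR 0.905). Both IL3- libraries were higher in CPM, by a gap of 1.18-fold, without passing the test. Xrcc2 had 1020 and 1210 counts against 665 and 723, a log2 fold change of -0.53. Rad51c, which belongs to both paralog complexes, had 228 and 394 counts against 194 and 126 and overlapped between groups.

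As shares of the summed FPKM of the 5 paralogs (Rad51b, Rad51c, Rad51d, Xrcc2 and Xrcc3), which compares genes per length, Xrcc3 made up 20.3% and 24.5% with IL-3 and 3.38% and 2.42% without. Rad51b made up 9.89% and 13.3% with IL-3 and 31.9% and 37.7% without, and so came to be the most abundant paralog in both IL3- libraries. Rad51d went from 48.4% and 34.8% to 31.0% and 30.7%. The summed FPKM of the family was 17.2 and 17.3 with IL-3 and 9.08 and 9.13 without. Rad51d (mean 7.19 FPKM with IL-3 and 2.81 without) and Xrcc3 (mean 3.86 and 0.264) made up most of that drop. The sum therefore does not show a fall across the family. Xrcc2 was also lower in both IL3- libraries in FPKM, Rad51b was higher in both, and Rad51c overlapped. Rad51d had 8.36 and 6.02 FPKM in the IL3+ replicates, so close sums hid a spread in single genes.

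**Figure D2:**
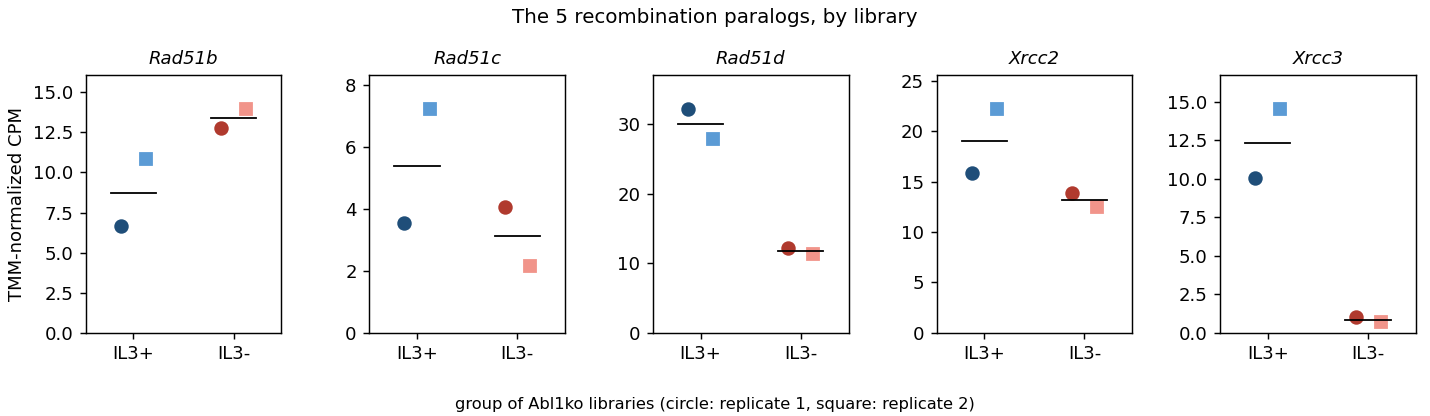
TMM-scaled CPM of the 5 recombination paralogs, 1 panel a gene and 1 point a library (circle, replicate 1; square, replicate 2), with a line at the mean of each group. Xrcc3 stood at 10.1 and 14.5 CPM with IL-3 and at 1.003 and 0.672 CPM without, Rad51d was lower in both IL3- libraries, and Rad51b was higher in both.

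The rest of homologous recombination showed no shared direction. BRCA1, which promotes resection of the break, and PALB2, which links it to BRCA2, were encoded by genes that were higher in both IL3- libraries. Brca1 had 2708 and 2569 counts in IL3+ cells against 3344 and 3547 in IL3- cells, a log2 fold change of 0.55. Palb2 had 674 and 698 against 884 and 838, a log2 fold change of 0.50. Brca2, whose product acts at the resected end, had 1018 and 1197 against 701 and 906, and Blm, the Bloom helicase, had 3340 and 2879 against 1984 and 2159, with log2 fold changes of -0.32 and -0.41. None of the 4 passed the test.

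RAD52 anneals single strands and is a target of synthetic lethality in cells short of BRCA function. Rad52 had 866 and 649 counts in IL3+ cells against 763 and 762 in IL3- cells, or 13.4 and 11.9 CPM against 15.9 and 13.1 CPM. Its groups overlapped and its log2 fold change was 0.20 (SE 0.38, adjusted p by edgeR 0.977). Rad54l, a motor protein of strand exchange, had 27.6 and 47.9 CPM against 60.4 and 32.5 CPM. The spread inside each group therefore exceeded the difference between the groups. About 15.4% of the exon bases of Rad54l overlap Lrrc41 on the opposite strand. Over the 11 recombination genes, 5 had a log2 fold change above 0 and 6 below, with a median of -0.32.

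ATM and ATR, the kinases that answer double-strand breaks and replication stress, had genes that stood on opposite sides. Atm had 889 and 365 counts in IL3+ cells against 198 and 332 in IL3- cells, or 13.8 and 6.71 CPM against 4.14 and 5.72 CPM. The groups did not overlap, but the IL3+ replicates differed from each other by more than the gap between the groups (log2 fold change -1.06, SE 0.55, adjusted p by edgeR 0.870). Atr had 3073 and 1933 counts against 3289 and 3412, or 47.7 and 35.6 CPM against 68.7 and 58.8 CPM. Its IL3- libraries were both higher (log2 fold change 0.62, SE 0.33, adjusted p 0.871). Prkdc, which encodes DNA-PKcs, was the most even of the 3, with 32.9 and 30.5 CPM against 32.2 and 32.8 CPM, from 2121 and 1657 counts against 1543 and 1903 (log2 fold change 0.04, SE 0.32, adjusted p 0.998).

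Below the kinases, Trp53, which encodes p53, was the most abundant repair gene per length, with a mean of 50.3 FPKM over the 4 libraries. It had 13513 and 21947 counts in IL3+ cells against 8273 and 8852 in IL3- cells, or 210 and 404 CPM against 173 and 153 CPM. Both IL3- libraries were lower, while the IL3+ replicates differed 1.92-fold (log2 fold change -0.91, SE 0.43, adjusted p by edgeR 0.855). Chek2, the checkpoint kinase activated by ATM, had 71.4 and 69.5 CPM against 57.7 and 63.6 CPM, a log2 fold change of -0.22, and overlapped in FPKM. Chek1, the kinase activated by ATR, had 971 and 1143 counts in IL3+ cells against 349 and 1134 in IL3- cells, so that 1 IL3- library set its log2 fold change of -0.43. Without that library the value was 0.11.

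**Figure D3:**
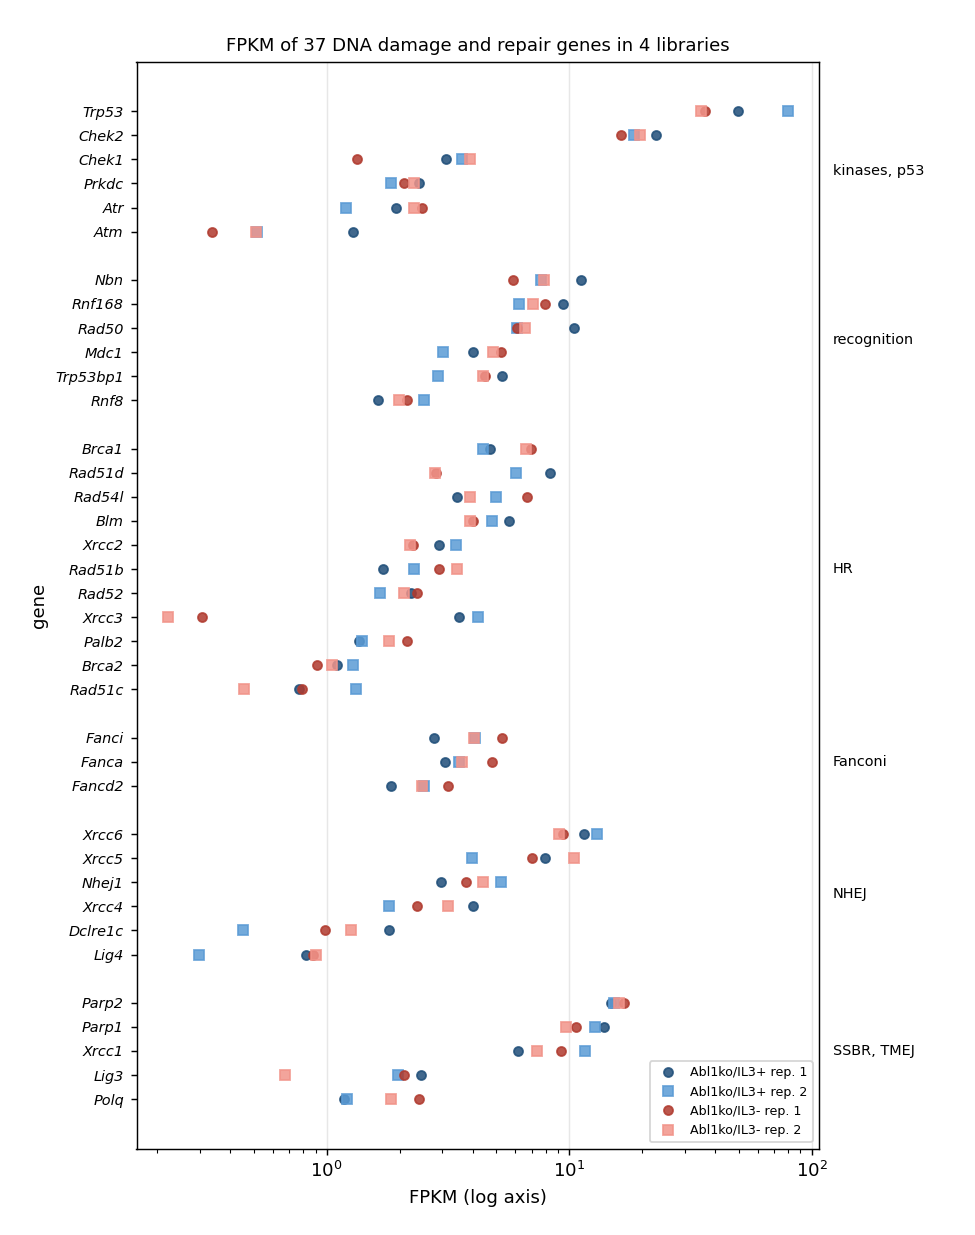
FPKM of the 37 repair genes in each of the 4 libraries on a log axis, grouped by role, 1 point a library. Trp53 is highest, with a mean of 50.3 FPKM, and Atm is lowest, with a mean of 0.66 FPKM, and Xrcc3 is the gene whose groups lie furthest apart.

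Genes of break recognition differed little. NBS1 (Nbn) and RAD50 hold broken ends in one complex with MRE11. Nbn had 1895 and 1320 counts in IL3+ cells against 830 and 1249 in IL3- cells, and Rad50 had 3790 and 2229 against 1832 and 2227. Their log2 fold changes were -0.47 and -0.38, and both overlapped in FPKM. Mdc1, the reader of phosphorylated H2AX, had 1992 and 1527 counts in IL3+ cells against 2187 and 2252 in IL3- cells, a log2 fold change of 0.52, and did not overlap on either scale. The ubiquitin ligase genes Rnf8 and Rnf168 and the 53BP1 gene Trp53bp1 had log2 fold changes of -0.05, -0.04 and 0.14, with groups that overlapped. About 13.2% of the exon bases of Rnf8 and 15.0% of those of Trp53bp1 overlap another gene, so that their reads may be split or dropped in counting.

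The 3 Fanconi genes put the 4 libraries in the same order, and that order did not separate the groups in CPM. FANCA belongs to the ubiquitin ligase of the pathway for interstrand crosslinks, and FANCD2 and FANCI are its paired substrates. Fanci had 16.7 and 29.4 CPM with IL-3 and 35.7 and 25.3 CPM without. Fancd2 had 15.3 and 25.1 CPM against 29.3 and 21.2 CPM, and Fanca had 28.2 and 38.5 CPM against 49.6 and 34.2 CPM. Each of the 3 was lowest in IL3+ replicate 1 and highest in IL3- replicate 1. Their groups overlapped in CPM, though Fanca was higher in both IL3- libraries in FPKM. The log2 fold changes of Fanci, Fancd2 and Fanca were 0.40, 0.32 and 0.33. About 16.0% of the exon bases of Fanci and 10.5% of those of Fanca overlap another gene on the opposite strand.

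The proliferation genes, 21 replication and mitosis genes such as Mki67 and Mcm2, were also lowest in IL3+ replicate 1, at 2229 CPM in sum. They reached 4671 CPM in IL3+ replicate 2 and stood at 3477 and 2782 CPM in the IL3- replicates. Of the 21, 6 had a log2 fold change above 0 and 15 below, and none had an unadjusted p under 0.05. Set against a gene's own average over the libraries, the median log2 level of the Fanconi genes was -0.52 and 0.18 with IL-3 and 0.42 and -0.06 without. That of the proliferation genes was -0.56 and 0.63 with IL-3 and 0.11 and -0.20 without. The recombination genes ranged less, at -0.09 and 0.25 against 0.04 and -0.28. The part of proliferation in the values of the repair genes was not tested.

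**Figure D4:**
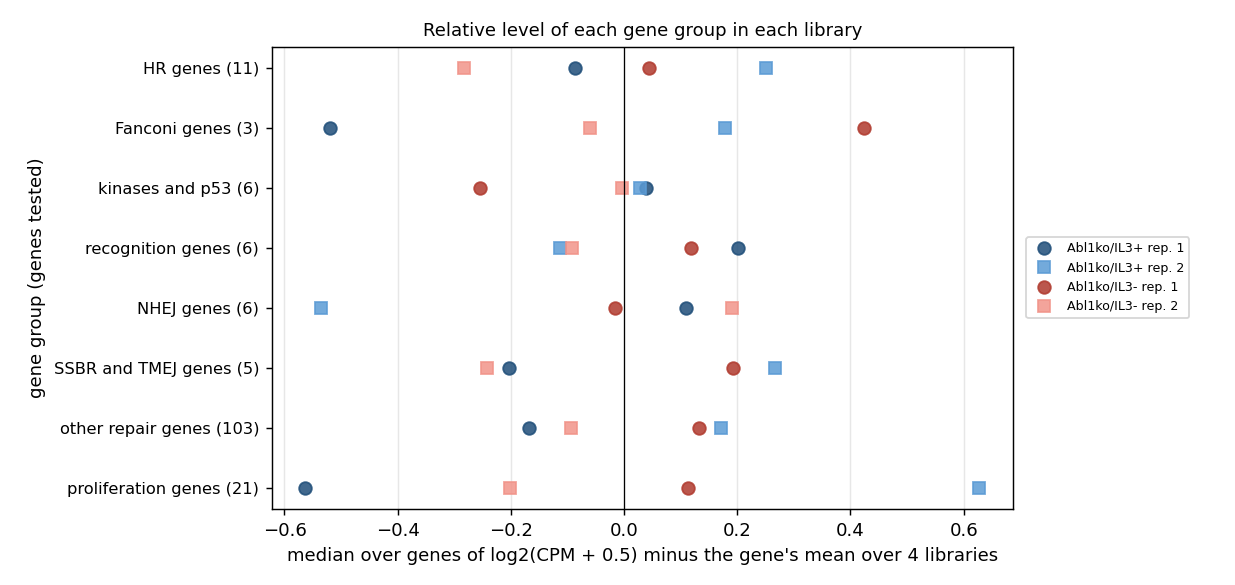
Median over the genes of each group of the log2 level, log2(CPM + 0.5), minus the average of that gene over all libraries, 1 point a library. For the proliferation genes and the 103 other repair genes tested, the IL3+ replicates stand at the ends and the IL3- replicates between them.

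Non-homologous end joining genes gave no common direction, with 3 of 6 above 0 and 3 below. KU70 (Xrcc6) and KU80 (Xrcc5) form the ring that binds broken ends. Xrcc6 had 3460 and 3975 counts in IL3+ cells against 2377 and 2546 in IL3- cells, a log2 fold change of -0.44, and did not overlap. Xrcc5 had 1367 and 691 against 1009 and 1679, a log2 fold change of 0.56, and overlapped. In FPKM, Xrcc6 stood 1.44-fold and 3.29-fold above Xrcc5 with IL-3, and at 1.34 and 0.865 times its level without.

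Lig4, the ligase of end joining, was among the least abundant members at a mean of 0.73 FPKM. It had 287 and 106 counts in IL3+ cells against 258 and 296 in IL3- cells, or 4.45 and 1.95 CPM against 5.39 and 5.10 CPM. Both IL3- libraries were higher, but IL3+ replicate 1 was closer to them than to IL3+ replicate 2 (log2 fold change 0.71, SE 0.60, adjusted p by edgeR 0.923). Dclre1c, the gene of the Artemis nuclease, showed the widest spread with IL-3, with 1134 and 287 counts against 515 and 736 without, a 3.33-fold difference in CPM between the IL3+ replicates and a log2 fold change of 0.04. Xrcc4 and Nhej1 (XLF), partners of the ligase, had log2 fold changes of -0.06 each and overlapped.

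Among genes of single-strand break repair, Parp1, whose product makes poly(ADP-ribose) at breaks, had 4963 and 4576 counts in IL3+ cells against 3162 and 3226 in IL3- cells, or 77.0 and 84.2 CPM against 66.1 and 55.6 CPM. Both IL3- libraries were lower (log2 fold change -0.41, SE 0.31, adjusted p by edgeR 0.910). Parp2 had 56.2 and 69.6 CPM against 71.5 and 63.2 CPM, a log2 fold change of 0.10. Xrcc1, the scaffold of this pathway, had 37.3 and 84.5 CPM with IL-3 and 63.2 and 46.6 CPM without, so the IL3- libraries fell between the IL3+ replicates.

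Lig3, the ligase that partners XRCC1, was low in 1 library only. It had 1200 and 976 counts in IL3+ cells against 854 and 311 in IL3- cells, or 18.6, 18.0, 17.8 and 5.36 CPM in that order (log2 fold change -0.66, SE 0.65, adjusted p by edgeR 0.936). Without IL3- replicate 2 the log2 fold change was -0.03. About 25.1% of its exon bases overlap Rffl on the opposite strand, and whether strand was used in counting is not given in the sources used here. Polq encodes polymerase theta, which joins ends through short homologies. It had 770 and 802 counts in IL3+ cells against 1307 and 1121 in IL3- cells, or 11.9 and 14.8 CPM against 27.3 and 19.3 CPM. Both IL3- libraries were higher by a gap of 1.31-fold (log2 fold change 0.80, SE 0.40, adjusted p by edgeR 0.860), the highest value among the repair genes.

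By the mean FPKM over the 4 libraries, Trp53 (50.3), Chek2 (19.4), Parp2 (15.8), Parp1 (11.8) and Xrcc6 (10.8) were the most abundant repair genes per length. Atm (0.66), Lig4 (0.73), Rad51c (0.84) and Brca2 (1.09) were the least. The lowest Trp53 library, at 34.9 FPKM, stood above the highest Chek2 library, at 22.9 FPKM, and the lowest Parp2 library, at 14.9 FPKM, stood above every Parp1 library. The other neighbours named in this order overlapped over the 4 libraries.

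The targeted gene Abl1 had 1322 and 2222 counts in IL3+ cells against 1544 and 2256 in IL3- cells. Small edits made by a guide need not remove the transcript, so these counts do not check the knockout.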

How the data were processed

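RNA-seq was done on 2 libraries of Abl1ko/IL3+ and 2 of Abl1ko/IL3- cells. The authors depleted ribosomal RNA, sequenced on a HiSeq instrument, aligned to GRCm38 with Rsubread and counted genes with featureCounts, and they deposited raw counts. The submitters' processing notes also name STAR, Cuffdiff and mm10. FPKM values were deposited by the authors beside the counts, and the tool behind them is not given in the sources used here. Nor are tool versions, use of strand, or how read pairs were counted. Reads of overlapping genes can be split or dropped in counting: 15 of the 37 genes share exon bases with another gene (GENCODE M21), 6 of them over 10%. By each library's total alone, without TMM factors, a count of 3 stands for 0.0497 to 0.0613 CPM, which covers counting error only.

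Groups and replicate numbers came from the labels. Counts were fitted with edgeR 4.0.16 (filterByExpr, TMM, quasi-likelihood F test, two-sided) in R 4.3.3, with Benjamini-Hochberg adjustment over 16535 genes and a threshold of 0.05. The standard error is the log2 fold change divided by the square root of F. Alternatives were DESeq2 1.42.0, limma 3.58.1 on log2(FPKM + 1) and log2(FPKM + 0.1), library size alone, no filter, 10 counts in every library, a replicate block and leaving out each library. The members and lists were chosen with earlier results of these data known. Every member is named, and full statistics go to those with an unadjusted p under 0.05, those whose groups did not overlap with an absolute log2 fold change of 0.58 or more, and Atm, Atr, Prkdc, Parp1 and Rad52, targets of inhibitors used in the study. From other lists, genes with an unadjusted p under 0.05 are named, apart from results that are not reported here. Promoter windows came from RefSeq, matched for 31 of 37 genes by symbol.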

Additional observations from a re-analysis of the deposited data

How the results depend on the processing

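In all, 12 alternatives were run, and 26 of the 37 repair genes kept the sign of their log2 fold change in all 12, Xrcc3 and Rad51d among them. DESeq2 called 271 genes and 1 repair gene, Xrcc3, where edgeR called 0, and every other setting, by edgeR or limma, called 0 repair genes. Leaving out 1 library gave 0 to 15 calls among all genes, the 15 without IL3- replicate 1. It gave 1 to 6 repair genes with an unadjusted p under 0.05. The 6 came without IL3+ replicate 1 (Atr, Trp53, Rad51d, Xrcc3, Lig4 and Dclre1c), where 15.7% of all genes passed, and without IL3+ replicate 2 there were 3 (Atm, Rad51d and Xrcc3), where 17.8% passed. Without IL3- replicate 1 or 2, Xrcc3 was the 1 gene, where 3.24% and 4.60% passed. Xrcc3 kept an unadjusted p under 0.05 in every setting that used all libraries, and its log2 fold change was -4.19 to -3.58 without 1 library. By limma it was -1.94 on log2(FPKM + 1) and -3.45 on log2(FPKM + 0.1). Xrcc3 had 0.307 and 0.221 FPKM without IL-3, so the added 1 exceeds its level there. Its adjusted p ranged from 1.15e-08 by DESeq2 to 0.693 with the replicate block. The median of the repair genes ranged from -0.062 to 0.032 without 1 library, and was 0.004 by library size alone, where that of all genes was 0.007. With the replicate block, 1 repair gene, Xrcc3, had an unadjusted p under 0.05, and 548 genes did against 978 without it. Whether same-numbered libraries share more than a label is not stated. Deviations from the group mean correlated over genes at -0.194 for same-numbered libraries and at 0.194 for crossed ones. With 2 libraries a group these values mirror each other by construction, so they cannot decide it. The crossed pairing, added after seeing the data, called 0 genes and gave 1136 at an unadjusted p under 0.05. Rnf8 changed sign to 0.018 by library size alone, 0.013 with the replicate block, 0.013 with the crossed block, and 0.013 and 0.028 by limma on log2(FPKM + 1) and log2(FPKM + 0.1). Nhej1 changed sign to 0.021, 0.034, 0.034, 0.034 and 0.050 in the same order, and Xrcc4 to 0.012 by limma on log2(FPKM + 0.1). Without 1 library, the log2 fold change ran from -0.017 to 0.11 for Prkdc, -1.30 to 0.11 for Chek1, -0.13 to 0.49 for Trp53bp1, -0.41 to 0.46 for Rnf8, -0.20 to 0.15 for Rnf168, -0.22 to 0.75 for Rad54l, -0.44 to 0.46 for Xrcc4, -0.49 to 0.57 for Nhej1, -0.59 to 1.17 for Dclre1c, -0.031 to 0.26 for Parp2 and -0.61 to 0.56 for Xrcc1. The causes were not tested. Where a group is left with 1 library, that library is assumed to vary like the other group.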

Other observations

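The repair genes outside the 37 gave few differences beyond the replicate spread. Of 106 other repair genes in 8 lists, 104 were in the table and 103 were tested. By edgeR's quasi-likelihood test 0 had an adjusted p under 0.05, 1 had an unadjusted p under 0.05, and DESeq2 called 0. Of the 103, 46 had a log2 fold change above 0 and 57 below, with a median of -0.02. In 17 both IL3- libraries lay above both IL3+ libraries in CPM (background 19.4%), and in 15 below (background 17.9%). Other homologous recombination genes were above 0 in 14 of 21, and 7 lay above without overlap and 0 below. Genes of the BRCA1-A complex and its ubiquitin partners were above 0 in 1 of 8, and 3 lay below without overlap. Other Fanconi genes were above 0 in 8 of 12, other checkpoint genes in 6 of 14, other end joining genes in 6 of 9, base excision and single-strand break repair genes in 5 of 19, mismatch repair genes in 2 of 7 and nucleotide excision repair genes in 4 of 13.

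Targets of p53 in the damage response gave no common direction. Of 17 tested, 9 had a log2 fold change above 0 and 8 below, and none had an unadjusted p under 0.05. The IL3+ replicates stood apart in the list as a whole. Set against a gene's own average over the libraries, the median log2 level was 0.30 and -0.34 with IL-3 and -0.18 and 0.02 without. Phlda3, an inhibitor of AKT, had 1295 and 0 counts in IL3+ cells against 11 and 8 in IL3- cells. Eda2r, a receptor of the tumour necrosis factor family, had 880 and 4 counts in IL3+ cells against 0 and 12 in IL3- cells, so both were high in IL3+ replicate 1 alone. Mdm2, the ubiquitin ligase of p53, had 7980 and 2292 counts in IL3+ cells against 1351 and 9278 in IL3- cells, and Cdkn1a, the p21 gene, had 19747 and 15877 against 6664 and 17760. Mdm2 was thus high in 1 library of each group, and Cdkn1a was low in IL3- replicate 1. Gadd45a, a growth arrest gene, had 2683 and 2467 counts in IL3+ cells against 3012 and 5348 in IL3- cells, and both IL3- libraries were higher in CPM (log2 fold change 0.83, SE 0.35, adjusted p by edgeR 0.850). These 5 genes were chosen after their values were seen.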
